A study of Mus musculus with 16 samples.

Results

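The genes described here encode the subunits of the 5 oxidative phosphorylation (OXPHOS) complexes, together with 7 assembly factors of complex I, in mouse spinal cord after spinal cord injury (SCI). They were taken from the gene symbols in the files by name: symbols beginning with Nduf (complex I), Sdha to Sdhd (complex II), symbols beginning with Uqcr together with Cyc1 (complex III), Cox4 to Cox8 (complex IV) and symbols beginning with Atp5 (complex V). This rule uses no measured value. It found 93 of the 24411 symbols. Complex I had 7 core subunits, 31 accessory subunits and 7 assembly factors (Ndufaf1 to Ndufaf7), and complexes II, III, IV and V had 4, 9, 18 and 17 genes. The name does not always match the role. Ndufa4 is now regarded as a subunit of complex IV, Cox7a2l joins complexes into supercomplexes, Atp5s and Atp5sl are not classical subunits of the enzyme, and the proteins encoded by mitochondrial DNA are outside the rule.

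RNA came from female C57BL/6J mice. In the 2 injured groups, mice received a 0.25 mm lateral compression of the thoracic cord when they were 12 wk old. From 2 wk after injury they were given either atorvastatin, a cholesterol-lowering inhibitor of HMG-CoA reductase, at 10 mg/kg per d (SCI + Atorvastatin, n = 7) or its solvent alone (SCI + Vehicle, n = 7), in each case for 4 wk, and tissue was isolated at 6 wk. The Uninjured Control group (n = 2) was uninjured and untreated, and so had no vehicle either. All mice were perfused with saline. The labels give an age of 12 wk for the controls and the study's methods give another, in either case younger at isolation than the SCI mice, so age, surgery, injections and injury cannot be told apart in comparisons with this group. From each mouse 1 section of 5 mm around the injury site or the matching site was sequenced. Values are from whole tissue, in which fewer cells of a type and less RNA per cell cannot be told apart.

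In oxidative phosphorylation, complexes I and II pass electrons from NADH and succinate to ubiquinone, complex III passes them on to cytochrome c, and complex IV passes them to oxygen. Complexes I, III and IV pump protons across the inner mitochondrial membrane, and complex V, the ATP synthase, uses the resulting gradient to make ATP. Most subunits are encoded in the nucleus, and their genes are commonly expressed together, most strongly in cells with a high demand for ATP such as neurons and muscle fibres. Several complex IV subunits exist as a ubiquitous form and a form of heart and skeletal muscle, testis or lung.

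The promoters of a few of these genes that hold matches to the motif letters given below are shown, as a description only. RefSeq (GRCm38.p6) gave a window of 250 bases before to 50 bases after the start site for 76 of the 93 genes, 70 of them subunit genes. The windows were searched on both strands for CGCANGCG (NRF1), CCGGAAG (ETS factors such as GABP), ATGGCGG (YY1) and GGGCGG (Sp factors). Below are the 100 bases before the start site, 5′ to 3′ on the strand of the gene, with NRF1 and ETS matches in capitals. The first 4 genes were called as lower than in the Uninjured Control group in both comparisons, and Atp5c1 and Ndufa8 were called in neither. For Atp5c1 the inner of 2 RefSeq starts is shown, and the same stretch before the outer start holds no NRF1 or ETS match.
Uqcr11 (chr10:80406822-80406921, - strand): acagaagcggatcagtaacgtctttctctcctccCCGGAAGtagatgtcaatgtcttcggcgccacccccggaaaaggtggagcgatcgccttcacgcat
Atp5h (chr11:115419920-115420019, - strand): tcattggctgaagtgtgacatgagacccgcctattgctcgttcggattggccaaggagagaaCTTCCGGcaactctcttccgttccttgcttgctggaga
Sdha (chr13:74350241-74350340, - strand): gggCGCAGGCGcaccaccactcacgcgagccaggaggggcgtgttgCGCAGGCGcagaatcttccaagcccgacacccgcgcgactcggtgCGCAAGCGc
Ndufb4 (chr16:37654369-37654468, - strand): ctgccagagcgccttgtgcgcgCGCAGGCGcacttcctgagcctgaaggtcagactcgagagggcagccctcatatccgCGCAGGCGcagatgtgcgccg
Atp5c1 (chr2:10080433-10080532, - strand): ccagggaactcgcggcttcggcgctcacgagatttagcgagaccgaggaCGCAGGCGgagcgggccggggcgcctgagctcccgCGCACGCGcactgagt
Ndufa8 (chr2:36049339-36049438, - strand): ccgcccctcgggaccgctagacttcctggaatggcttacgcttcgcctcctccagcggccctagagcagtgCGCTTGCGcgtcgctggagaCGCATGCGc

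The NRF1 letters were found in 26 of the 70 subunit genes with a window (37.1%), against 17.1% of the 12040 expressed genes with a window and 9.22% of all 27018 genes with one. For the ETS letters the shares were 22.9%, 17% and 9.93%, and for the YY1 letters 15.7%, 8.03% and 4.69%. For the Sp letters the shares were 41.4%, 64.5% and 38.2%. The median log2 fold change in SCI + Vehicle vs. Uninjured Control was -0.67 over the 25 subunits with NRF1 letters and -0.70 over the 40 without. With and without ETS letters it was -0.79 and -0.65, with and without YY1 letters -0.56 and -0.72, and with and without Sp letters -0.66 and -0.76. These are counts of letters, not of bound sites, and no test was made on them.

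Libraries held 14823292 to 25579826 counts on genes. The 2 Uninjured Control libraries had counts in 12732 and 12356 genes, whereas the SCI libraries had counts in 16399 to 19338. The controls also carried liver transcripts, with a summed level of 6 liver markers of 5622 and 977 TPM against at most 12.0 in any SCI mouse. Glial markers of spinal cord were present in every library, with summed levels of at least 13104 TPM for 8 oligodendrocyte markers and 2919 TPM for 6 astrocyte markers. The summed level of 12 neuron markers was 8124 to 12449 TPM in SCI + Vehicle, 7452 to 10559 in SCI + Atorvastatin, and 11847 and 15134 in the controls, so that the SCI + Vehicle range reached above 1 control. In 2 SCI libraries there were many skeletal muscle transcripts: SCI + Atorvastatin replicate 2 (8 markers, 4149 TPM) and SCI + Vehicle replicate 3 (1025), against at most 225 in the other SCI mice and 32.4 and 74.4 in the controls. SCI + Vehicle replicate 7 had the most neuron marker RNA of the SCI mice and the least fibroblast (71.9 TPM) and microglia or macrophage marker RNA (525 TPM). What these differences contribute to the results was not tested.

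To ask what injury changed, each SCI group was compared with the Uninjured Control group. Of the 93 genes, 91 passed the expression filter of a mean transcript level above 1 TPM, a unit scaled for transcript length and library total, in at least 1 group. Cox7b2 and Cox8c did not. Ndufs5 passed but had no counts in any mouse (described below), which left 90 genes with counts. DEGs were genes past a Benjamini-Hochberg adjusted p of 0.05 over all 16091 genes tested (edgeR) whose log2 fold change exceeded 0.322 in either direction. Of the 90 genes, 6 had no counts in either control mouse and are treated separately, and 77 subunit genes and 7 assembly factors remained.

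In every complex most of the subunit genes with counts in a control were lower in the injured cord. With SCI + Vehicle set against Uninjured Control, 47 of the 77 subunits with counts in a control were called as lower and none as higher, and 72 had a negative log2 fold change. Over all genes tested, 9.55% were called as lower and 19.8% as higher, and over the 13658 with counts in a control 11.2% were called in each direction. The absence of higher calls among the 77 is set in part by leaving out the genes without control counts: over all 83 subunits with counts, 5 were called as higher. The median log2 fold change of the 77 subunits was -0.67 (a median fold of 0.629), against 0.02 over the 13658 genes and 0.17 over all genes. In SCI + Atorvastatin vs. Uninjured Control, 55 of 77 were called as lower and none as higher, with a median of -0.73 against 0.04 over the 13658 genes and 0.21 over all genes. Called as lower and higher were 16.5% and 15.4% of the 13658 genes, and 14% and 24.9% of all genes. Both comparisons share the 2 control mice. The size of the difference depended on which control mouse was used. With Uninjured Control replicate 1 left out, the subunit median was -0.48 and -0.51, against 0.34 and 0.37 over all genes. The subunit median minus that of all genes was then -0.81 and -0.88, against -0.84 and -0.94 with both controls. Negative values then numbered 61 and 62 of 77. With Uninjured Control replicate 2 left out, the subunit median was -0.96 and -0.96, against 0.31 and 0.33 over all genes. The subunit median minus that of all genes was then -1.27 and -1.28. Each of these fits rests on 1 control. Sdhc, Cox6b1 and Atp5b were among those whose call was lost in both comparisons without Uninjured Control replicate 1. On TPM in place of counts (limma on log2(TPM + 1)), 27 and 36 of 77 were called as lower. Of all 16091 genes, 4452 and 6316 were called in either direction. The subunit median on that scale was -0.43 and -0.46, less far from 0 than on counts. The median of all genes was 0.49 and 0.52, and the subunit median minus it was -0.92 and -0.98, against -0.84 and -0.94 on counts. These medians of all genes include genes without control counts. With at least 10 counts in every mouse, the subunit median minus that of all genes was -0.64 and -0.71 on counts.

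The summed TPM of the 86 subunit genes, a level per transcript length, was 25912 to 30400.4 in 13 of the 14 SCI mice, 36992 in SCI + Vehicle replicate 7, and 50206 and 41294 in the controls. By complex it was 1378 to 1621 in 13 of the 14 SCI mice, 1859 in SCI + Vehicle replicate 7, and 2136 and 1869 in the controls for the complex I core. For the complex I accessory subunits it was 7010.2 to 8206 in 13 of the 14 SCI mice, 9819.7 in SCI + Vehicle replicate 7, and 13803 and 10310.2 in the controls. For complex II the sum was 844 to 967 in 13 of the 14 SCI mice, 1014 in SCI + Vehicle replicate 7, and 1372 and 1163 in the controls. The values were 3056 to 3766 in 13 of the 14 SCI mice, 4698 in SCI + Vehicle replicate 7, and 5678 and 5364 in the controls for complex III. Complex IV summed to 6760.3 to 8709 in 13 of the 14 SCI mice, 10201 in SCI + Vehicle replicate 7, and 15189 and 12338 in the controls. Complex V summed to 6488 to 7532 in 13 of the 14 SCI mice, 9400.5 in SCI + Vehicle replicate 7, and 12029 and 10249.8 in the controls. Every SCI mouse was below both controls in each of these sums. SCI + Vehicle replicate 7 was the highest SCI mouse in all of them, and also for 57 of the 77 subunits taken singly.

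**Figure D1:**
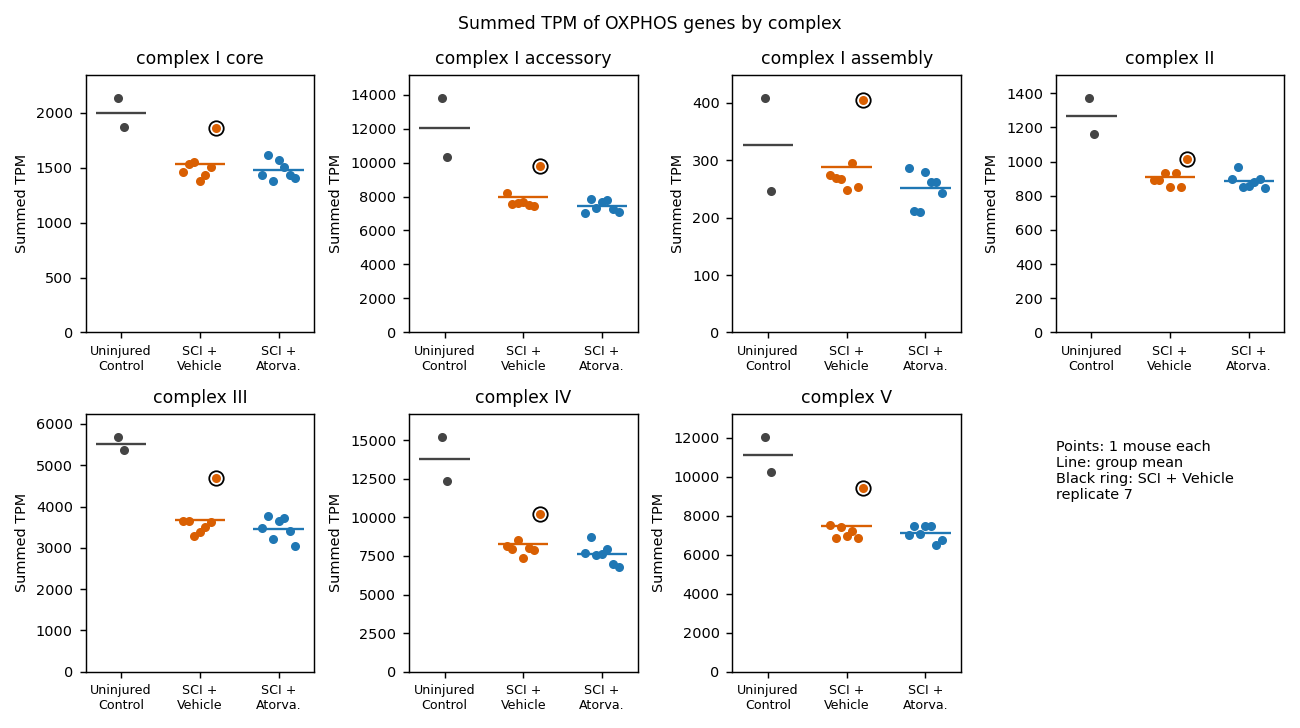
Summed TPM of the OXPHOS genes of each class in every mouse, by group, with the group mean as a line and SCI + Vehicle replicate 7 ringed. For complex IV the SCI mice lay between 6760.3 and 10201 TPM and the controls at 15189 and 12338, while the SCI and control mice overlapped for the complex I assembly factors.

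Gene by gene, on counts scaled to library size by TMM (CPM), 39 of the 77 subunits had every SCI + Vehicle mouse below both controls, against 12.6% of the 13658 genes with counts in a control and 10.7% of all genes tested. For SCI + Atorvastatin it was 50 of 77, against 16.8% and 14.2%. The 2 controls differed from each other by a median absolute log2 ratio of 0.484 over the 77 subunits and 0.672 over all genes with counts in both, and Uninjured Control replicate 1 was the higher of the pair for 68 of the 77.

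Complex I takes electrons from NADH through its peripheral arm, whose core subunits carry the flavin and the iron-sulfur clusters. Of the 7 core genes, 5 were called as lower in both comparisons (among them Ndufs8 and Ndufv1), and Ndufs1 and Ndufs3 in neither. Ndufv1, the NADH-binding flavoprotein, was at 194 to 281 TPM (median 227) in the SCI + Vehicle mice, 169.8 to 228 (median 209) in the SCI + Atorvastatin mice, and 229 and 312 in the Uninjured Control mice. Uninjured Control replicate 1 lay within the SCI + Vehicle range. Its log2 fold change was -0.53 ± 0.14 (SE) in SCI + Vehicle vs. Uninjured Control (edgeR adjusted p = 0.0175) and -0.61 ± 0.10 in SCI + Atorvastatin vs. Uninjured Control (adjusted p = 0.00116). Ndufs8, an iron-sulfur subunit near the ubiquinone site, was at 107 to 205 TPM over the SCI mice and 475 and 162 in the controls, and the SCI mice overlapped Uninjured Control replicate 2 on this scale. Its log2 fold changes were -1.20 ± 0.27 and -1.31 ± 0.27, and without Uninjured Control replicate 1 its adjusted p was 0.133 and 0.0323. Ndufs1, an iron-sulfur subunit of the arm, was at 104 to 165 TPM over the SCI mice and 93.1 and 149.6 in the controls, and its log2 fold changes were 0.07 ± 0.13 and 0.05 ± 0.13 (adjusted p = 0.754 and 0.816). Ndufs7 had the highest level of the 7 over the SCI mice (mean 359.7 TPM), and Ndufs3 the lowest (mean 127 TPM, with log2 fold changes of -0.13 and 0.04).

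The accessory subunits surround this core and are needed for its assembly and stability. Of 29 with counts in a control, 15 were called as lower in SCI + Vehicle and 20 in SCI + Atorvastatin vs. Uninjured Control. Those called in both were Ndufa3, Ndufa4, Ndufa5, Ndufa6, Ndufa9, Ndufa11, Ndufa13, Ndufab1, Ndufb2, Ndufb3, Ndufb4, Ndufb8, Ndufc2, Ndufs4 and Ndufs6, and those called with SCI + Atorvastatin alone were Ndufa10, Ndufa12, Ndufb5, Ndufb10 and Ndufc1. Ndufb8, a membrane arm subunit often used as a protein marker of assembled complex I, was at 221 to 461 TPM (median 308) in the SCI + Vehicle mice, 260.3 to 392 (median 333) in the SCI + Atorvastatin mice, and 681 and 1099 in the Uninjured Control mice. All 14 SCI mice were below both controls. The log2 fold change was -1.43 ± 0.18 (SE) in SCI + Vehicle vs. Uninjured Control (edgeR adjusted p = 3.09e-04) and -1.49 ± 0.14 in SCI + Atorvastatin vs. Uninjured Control (adjusted p = 4.30e-05). Its exons overlap those of Gm20538 on the same strand, so their reads may not be separable. Ndufs4, whose loss in mice causes an encephalopathy like Leigh syndrome, was at 95.1 to 143 TPM over the SCI mice and 221 and 218 in the controls, with log2 fold changes of -0.97 ± 0.17 and -0.96 ± 0.14 (adjusted p = 0.00197 and 4.30e-04). Ndufa3 was at 288 to 591 TPM over the SCI mice and 1057 and 752 in the controls, and Ndufa6 at 457 to 653 TPM over the SCI mice and 1038 and 1008 in the controls. The log2 fold changes were -1.17 and -1.37 for Ndufa3 and -0.85 and -1.04 for Ndufa6, and neither gene overlapped between SCI and control mice. The 2 controls differed widely for some accessory subunits. Ndufc2 was at 743 and 206 TPM in the controls and 169 to 261 in the SCI mice, and Ndufa1 at 254 and 45.4 in the controls with the SCI mice between them. The 9 accessory genes with counts that were called in neither comparison were Ndufa1, Ndufa2, Ndufa7, Ndufa8, Ndufb6, Ndufb7, Ndufb9, Ndufb11 and Ndufv3. Among them Ndufa2 had log2 fold changes of 0.12 and 0.11, Ndufa8 of 0.10 and 0.22, and Ndufb11 of -0.06 and 0.02. Ndufs5 was listed at 523 to 864 TPM over the SCI mice and 1500.2 and 532 in the controls, but its count was 0 in all 16 mice. It was 1 of 81 genes with a mean above 5 TPM and no counts, so no count test was possible for it.

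Of the 7 assembly factors, which help build complex I and are not part of it, none was called in SCI + Vehicle vs. Uninjured Control (2 at an unadjusted p below 0.05 in edgeR). Ndufaf2 and Ndufaf6 were called as lower in SCI + Atorvastatin vs. Uninjured Control. The median log2 fold changes of the 7 were -0.21 and -0.36, but this direction was not stable, as alternatives gave -0.27 to 0.30 and -0.44 to 0.34, with the highest values without Uninjured Control replicate 2. Single genes ran from -1.30 and -1.28 (Ndufaf6) to 1.13 and 1.28 (Ndufaf1). Ndufaf1, a chaperone of the intermediate membrane arm, was at 15.3 to 44.0 TPM over the SCI mice and 6.16 and 19.5 in the controls, with adjusted p = 0.103 and 0.0566. Ndufaf6 was at 2.90 to 15.2 TPM over the SCI mice and 28.3 and 30.2 in the controls, and every SCI mouse was below both, with adjusted p = 0.0514 and 0.040. Ndufaf3 was at 15.9 to 40.4 TPM over the SCI mice and 17.1 and 21.7 in the controls, with log2 fold changes of 0.78 ± 0.37 and 0.56 ± 0.35, not called. Ndufaf2 had the highest mean of the 7 over the SCI mice (139 TPM), and the 2 controls differed by a median absolute log2 ratio of 0.884 over them. The difference between assembly factors and subunits was not tested.

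Complex II is succinate dehydrogenase, shared with the tricarboxylic acid cycle and encoded wholly in the nucleus. Sdha, Sdhb and Sdhc were called as lower in both comparisons and Sdhd in neither. Sdhb, the iron-sulfur subunit, was at 251 to 287 TPM (median 271) in the SCI + Vehicle mice, 231 to 296 (median 259) in the SCI + Atorvastatin mice, and 434 and 422 in the Uninjured Control mice. No SCI mouse reached a control. Its log2 fold change was -0.82 ± 0.14 (SE) in SCI + Vehicle vs. Uninjured Control (edgeR adjusted p = 0.00161) and -0.88 ± 0.16 in SCI + Atorvastatin vs. Uninjured Control (adjusted p = 0.00200). Sdha, the flavoprotein with the succinate site, was the most abundant of the 4 over the SCI mice (mean 385 TPM) and had log2 fold changes of -0.49 ± 0.13 and -0.53 ± 0.10. Sdhc and Sdhd anchor the enzyme in the membrane. Sdhc was at 141 to 199 TPM over the SCI mice and 336 and 153 in the controls, with log2 fold changes of -0.88 and -0.84, and Uninjured Control replicate 2 lay within the SCI range. Sdhd was at 66.0 to 131 TPM over the SCI mice and 73.9 and 163 in the controls, with log2 fold changes of -0.44 and -0.60 (adjusted p = 0.286 and 0.0735). For Sdhd it was Uninjured Control replicate 1 that lay within the SCI range.

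Complex III, the cytochrome bc1 complex, had 6 of 9 genes called as lower in SCI + Vehicle and 7 in SCI + Atorvastatin vs. Uninjured Control, and all 9 log2 fold changes were negative in both. Uqcr11, a small subunit of the complex, was at 346.7 to 587 TPM (median 426) in the SCI + Vehicle mice, 386 to 593 (median 458) in the SCI + Atorvastatin mice, and 1149 and 1138 in the Uninjured Control mice. The controls nearly coincided and stood apart from all SCI mice. The log2 fold change was -1.40 ± 0.20 (SE) in SCI + Vehicle vs. Uninjured Control (edgeR adjusted p = 6.52e-04) and -1.31 ± 0.16 in SCI + Atorvastatin vs. Uninjured Control (adjusted p = 2.08e-04). Uqcrc1, one of the core proteins, was at 224 to 285 TPM over the SCI mice and 434 and 360.3 in the controls, with log2 fold changes of -0.82 ± 0.13 and -0.72 ± 0.11 (adjusted p = 9.91e-04 and 5.16e-04). Uqcrfs1, the Rieske iron-sulfur protein, was at 119.6 to 184 TPM over the SCI mice and 341 and 188 in the controls, with log2 fold changes of -1.08 ± 0.21 and -1.01 ± 0.20. Cyc1, the cytochrome c1 subunit, and Uqcrq, which had the highest TPM of the 9, were called in neither comparison, with log2 fold changes of -0.55 and -0.63 for Cyc1 and -0.58 and -0.69 for Uqcrq. Uqcr10 was called with SCI + Atorvastatin alone, and the remaining Uqcrb, Uqcrc2 and Uqcrh were called in both. For Uqcr10, TPM was 243 to 455 over the SCI mice and 187 and 503 in the controls. Uninjured Control replicate 1 was thus below every SCI mouse on TPM, whereas in CPM both controls (47.1 and 47.4) were above every SCI mouse. Uninjured Control replicate 2 lay within the SCI range for both Cyc1 and Uqcrq.

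Complex IV, cytochrome c oxidase, had the lowest median log2 fold change of the 5 complexes, -0.89 and -0.98 over its 11 genes with counts in a control, although differences between complexes were not tested. Of these, 8 were called as lower in SCI + Vehicle and 10 in SCI + Atorvastatin vs. Uninjured Control. Cox6c had the highest level of all the genes described here, 2381 to 3136 TPM (median 2647) in the SCI + Vehicle mice, 2122 to 2793 (median 2538) in the SCI + Atorvastatin mice, and 5620.5 and 4093 in the Uninjured Control mice. All SCI mice were below both controls. Its log2 fold change was -1.10 ± 0.15 (SE) in SCI + Vehicle vs. Uninjured Control (edgeR adjusted p = 5.39e-04) and -1.18 ± 0.13 in SCI + Atorvastatin vs. Uninjured Control (adjusted p = 1.10e-04). Cox4i1, the ubiquitous form of the regulatory subunit IV, was at 899 to 1411 TPM (median 1070.4) in the SCI + Vehicle mice, 908 to 1076 (median 1041) in the SCI + Atorvastatin mice, and 1782 and 1998 in the Uninjured Control mice, again without overlap. Its log2 fold changes were -0.99 ± 0.16 and -1.10 ± 0.09 (adjusted p = 0.00155 and 3.11e-05). Cox7b was at 233 to 447 TPM over the SCI mice and 656 and 555 in the controls, with log2 fold changes of -1.16 ± 0.23 and -1.37 ± 0.14. Cox6a1, Cox6b1, Cox7a2 and Cox8a are the ubiquitous forms of subunits that also have tissue-specific forms. The log2 fold changes were -0.80 and -0.84 for Cox6a1, -0.89 and -0.98 for Cox6b1, -0.58 and -0.67 for Cox7a2, and -0.63 and -0.81 for Cox8a. All were called except Cox7a2 in SCI + Vehicle (adjusted p = 0.0910). Of the rest, Cox5b and Cox7c were called in both comparisons and Cox5a with SCI + Atorvastatin alone. Cox6b1 was at 761 TPM in Uninjured Control replicate 1 and 364 in replicate 2, the latter within the SCI range. Ndufa4, counted with complex I by its name, was called as lower in both, with log2 fold changes of -1.14 ± 0.25 and -1.41 ± 0.19 (adjusted p = 0.00705 and 2.93e-04). Cox7a2l was the exception, at 166 to 297 TPM over the SCI mice and 197 and 146 in the controls, with log2 fold changes of 0.14 and 0.00 (adjusted p = 0.664 and 1.00).

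A further 6 genes had counts in the SCI mice and none in either control: Cox4i2 (the form of lung and of low oxygen), Cox6a2, Cox7a1 and Cox8b (heart and skeletal muscle), Cox6b2 (testis), and Ndufa4l2, which is induced by hypoxia. They passed the expression filter only through the SCI groups, so that a difference from the controls was built into their selection. All but Cox8b were called as higher in both comparisons, which is given as a description. A count of 0 in both controls was common among genes of this level. The control libraries held 20211276 and 22368736 counts, within the range of the SCI libraries. Of the 2108 genes tested with a mean SCI count in the same range (25.9 to 103), 1132 (53.7%) had no counts in both controls. TPM was listed at 0 in both controls for all 6 as well. Against 3 counts in a control library (0.151 CPM), Cox6a2 was at least 30.8-fold higher in SCI + Vehicle and at least 30.3-fold higher in SCI + Atorvastatin (18-fold without SCI + Atorvastatin replicate 2), Cox7a1 at least 18.4-fold and 19.2-fold, Cox6b2 at least 14.1-fold and 11-fold, Cox4i2 at least 11.1-fold and 8.6-fold, and Ndufa4l2 at least 11.2-fold and 6.35-fold. Intervals and floors of this kind cover counting error only. Some zeros in a control went beyond it, as Tmem126b had 169 and 0 counts in the controls and Lyrm7 187 and 0. The folds are therefore not lower limits on the difference in expression. All were of low level, with medians of 33.3 (Cox7a1), 14.1 (Cox6b2), 7.89 (Cox6a2), 5.16 (Cox8b), 5.07 (Cox4i2) and 4.89 TPM (Ndufa4l2) in SCI + Vehicle.

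Cox6a2 was at 15.8 CPM in SCI + Atorvastatin replicate 2 and 9.43 CPM in SCI + Vehicle replicate 3, the libraries richest in muscle markers. The medians of the groups were 3.08 and 4.67 CPM. Cox8b had 165 counts in SCI + Atorvastatin replicate 2 and was above 3 counts in 5 of 7 SCI + Atorvastatin and 4 of 7 SCI + Vehicle mice. Cox7a1 was less uneven, from 1.85 to 4.76 CPM in SCI + Atorvastatin and 1.97 to 3.97 in SCI + Vehicle. The share of muscle RNA in these values was not tested. The other testis forms did not pass the expression filter. Cox8c had no counts in any mouse, which allows up to 3 counts per library, and Cox7b2 was above 3 counts in 4 SCI + Atorvastatin and 3 SCI + Vehicle mice.

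**Figure D2:**
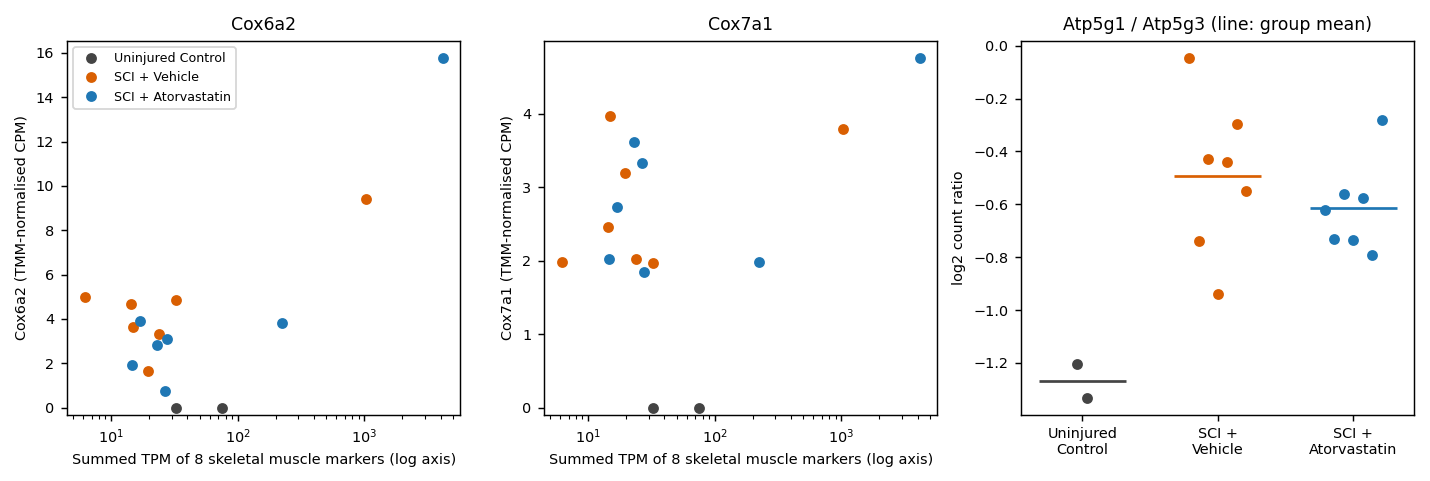
Left and middle, CPM of Cox6a2 and Cox7a1 in each mouse against the summed TPM of 8 skeletal muscle markers (log axis). Right, log2 ratio of Atp5g1 to Atp5g3 counts in each mouse with the group mean as a line. Cox6a2 was highest, at 15.8 and 9.43 CPM, in the mice with the most muscle marker RNA, and the Atp5g1 to Atp5g3 ratio of both controls lay below every SCI mouse.

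Complex V, the ATP synthase, had 10 of 17 genes called as lower in each comparison. Atp5l, a subunit of the membrane part that supports dimers of the enzyme, was at 359.6 to 458 TPM (median 409) in the SCI + Vehicle mice, 346.1 to 462 (median 405) in the SCI + Atorvastatin mice, and 1138 and 773 in the Uninjured Control mice. The SCI mice lay well below both controls. Its log2 fold change was -1.48 ± 0.19 (SE) in SCI + Vehicle vs. Uninjured Control (edgeR adjusted p = 3.70e-04) and -1.46 ± 0.16 in SCI + Atorvastatin vs. Uninjured Control (adjusted p = 1.01e-04). Atp5h, of the peripheral stalk, was at 1449.5 to 2272 TPM (median 1519) in the SCI + Vehicle mice, 1424 to 1713 (median 1543) in the SCI + Atorvastatin mice, and 3322 and 2914 in the Uninjured Control mice, and its log2 fold changes were -1.18 ± 0.20 and -1.24 ± 0.13 (adjusted p = 0.00180 and 9.09e-05). Atp5f1, also of the stalk, was at 221 to 349.4 TPM over the SCI mice and 293 and 588 in the controls, with log2 fold changes of -0.82 ± 0.18 and -0.87 ± 0.16. Atp5a1 and Atp5b, of the catalytic head, had smaller values, with log2 fold changes of -0.44 ± 0.12 and -0.48 ± 0.11 for Atp5a1 and -0.41 ± 0.13 and -0.46 ± 0.10 for Atp5b. Both were called, and without Uninjured Control replicate 1 the adjusted p was 0.165 (Atp5a1) and 0.291 (Atp5b) in SCI + Vehicle vs. Uninjured Control. Atp5c1, the central stalk, was at 311 to 424 TPM over the SCI mice and 368 and 396 in the controls and was not called (-0.13 ± 0.12 and -0.12 ± 0.11). The other genes called were Atp5j, Atp5j2, Atp5k and Atp5o, and Atp5d, Atp5e and Atp5sl were not called. Atp5s, the lowest of the class, had a mean of 12.3 TPM over the SCI mice and log2 fold changes of -0.66 ± 0.45 and -0.70 ± 0.43. Across all complexes, exons of 32 of the 93 genes overlap those of another gene, 27 of them only on the opposite strand, among them Cox6c, Cox4i1, Ndufa3, Cox6a2 and Atp5l, and the counting is not stated to use strand.

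Atp5g1, Atp5g2 and Atp5g3 encode the same mature protein of the rotating c-ring from different genes. In counts, Atp5g3 was called as lower in both comparisons (-0.92 ± 0.21 and -1.0 ± 0.16), whereas Atp5g1 (-0.16 ± 0.22 and -0.36 ± 0.17) and Atp5g2 (-0.30 ± 0.31 and -0.61 ± 0.27) were not. The log2 ratio of Atp5g1 to Atp5g3 counts, which does not depend on library scaling, was -0.94 to -0.05 in SCI + Vehicle, -0.79 to -0.28 in SCI + Atorvastatin, and -1.21 and -1.33 in the controls. All 14 SCI mice were above both controls. The difference from the controls was not tested, and this pair was singled out from 8 after its values were seen. The 3 genes have near-identical parts, so reads may have been split between them.

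**Figure D3:**
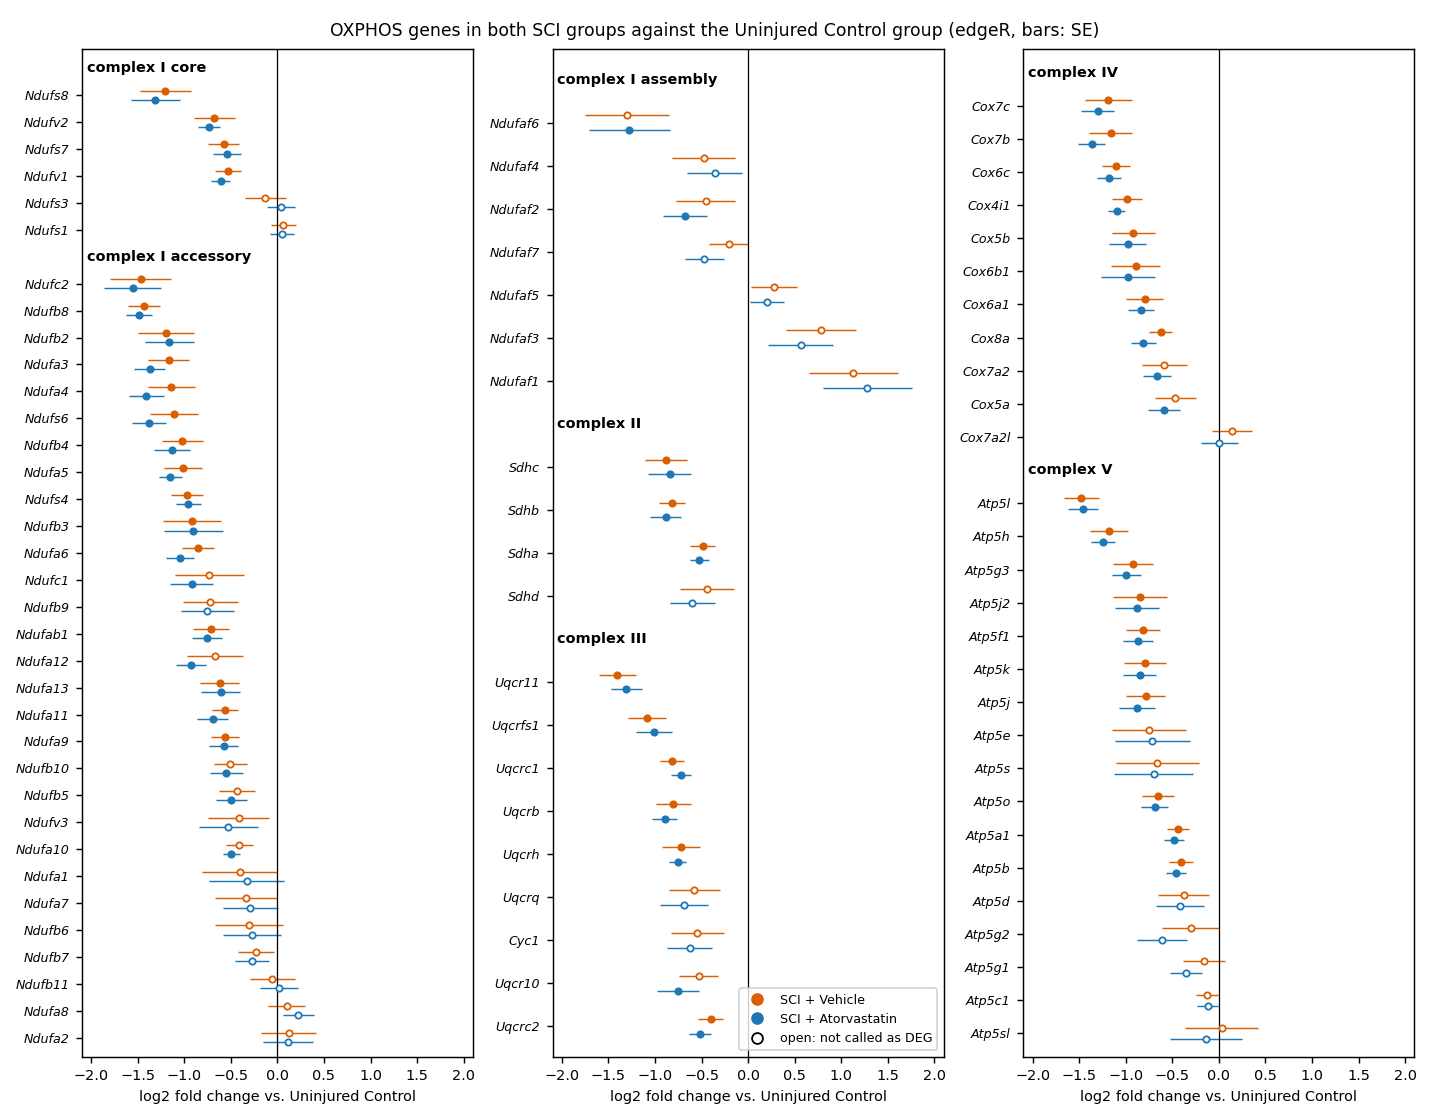
Log2 fold change with its SE (edgeR) of 83 of the OXPHOS genes with counts in a control mouse, for SCI + Vehicle and SCI + Atorvastatin against the same 2 Uninjured Control mice. Filled points are called as DEGs. Of all 77 subunits, 47 and 55 were called as lower, and of the complex I assembly factors 0 and 2.

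Other genes of mitochondria were counted in the same way. For comparison, 9.55% and 14% of all genes tested were called as lower in the SCI + Vehicle and SCI + Atorvastatin comparisons with Uninjured Control. Called as higher were 19.8% and 24.9%. Whether any list differed from these shares was not tested. Among genes for ubiquinone synthesis, cytochrome c and ATP synthase regulators, 5 and 7 of 15 were called as lower in the SCI + Vehicle and SCI + Atorvastatin comparisons and 1 and 1 as higher (median log2 fold change -0.98 and -0.90 over those with counts in a control). The gene called as higher was Pdss1, which had no counts in either control. Cycs, which carries electrons from complex III to complex IV, had log2 fold changes of -0.49 ± 0.18 and -0.57 ± 0.13, called with SCI + Atorvastatin alone. Atpif1, the inhibitor of ATP synthase, had -0.98 ± 0.20 and -1.03 ± 0.13, and Usmg5, a small subunit of the ATP synthase under another name, -1.25 ± 0.35 and -1.30 ± 0.26. Both were called as lower in both comparisons. Coq7, a hydroxylase of ubiquinone synthesis, had -1.08 ± 0.25 and -1.36 ± 0.23. Among further assembly factors of all complexes, 7 and 10 of 36 were called as lower in the SCI + Vehicle and SCI + Atorvastatin comparisons and 3 and 4 as higher (median log2 fold change -0.26 and -0.35 over those with counts in a control). Called as lower in both were Atpaf2 (-1.10 ± 0.19 and -1.35 ± 0.20) of ATP synthase, Uqcc2 (-1.12 ± 0.22 and -1.20 ± 0.15) of complex III, and Cox10, Cox14, Sco1, Surf1 and Pet100 of complex IV. Nubpl, Cox16 and Coa7, called as higher, had no counts in either control. For Cox16 the TPM went the other way, at 59.1 and 49.3 in the controls and at most 37 in SCI mice.

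Among regulators of mitochondrial biogenesis and of mitochondrial DNA, 0 and 0 of 16 were called as lower in the SCI + Vehicle and SCI + Atorvastatin comparisons and 3 and 4 as higher (median log2 fold change -0.01 and 0.25 over those with counts in a control). These shares are near those of all genes called as higher (19.8% and 24.9%), and 1 of the genes called, Tfb1m, had no counts in either control. Ppargc1a, the coactivator PGC-1α, was at 18.4 to 28.9 TPM in SCI + Vehicle, 21.5 to 27.4 in SCI + Atorvastatin and 10.4 and 39.2 in the controls, which the SCI mice lay between. Nrf1, whose motif is shown above, had log2 fold changes of 0.47 ± 0.24 and 0.74 ± 0.21 (adjusted p = 0.177 and 0.0165), Gabpa -0.01 ± 0.29 and 0.25 ± 0.29 and Tfam -0.54 ± 0.31 and -0.62 ± 0.26, of which only Nrf1 with SCI + Atorvastatin was called, as higher. Of the mitochondrial ribosomal proteins, which translate the subunits encoded by mitochondrial DNA, 14 and 16 of 77 were called as lower in the SCI + Vehicle and SCI + Atorvastatin comparisons and 3 and 4 as higher (median log2 fold change -0.27 and -0.36 over those with counts in a control). For outer membrane and matrix genes, 5 and 6 of 14 were called as lower in the SCI + Vehicle and SCI + Atorvastatin comparisons and 0 and 0 as higher (median log2 fold change -0.34 and -0.35 over those with counts in a control). All 77 ribosomal protein genes and all 14 of these had counts in a control. Of the 13658 such genes, 11.2% and 16.5% were called as lower and 11.2% and 15.4% as higher. Tomm20, an import receptor, had -0.65 ± 0.13 and -0.72 ± 0.09 and Slc25a4, the ATP and ADP carrier, -0.46 ± 0.15 and -0.52 ± 0.12, whereas Cs, citrate synthase, a common measure of mitochondrial content, had -0.22 ± 0.15 and -0.26 ± 0.11 and was not called.

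Of 12 neuron markers, 7 were called as lower in SCI + Vehicle and 9 in SCI + Atorvastatin vs. Uninjured Control, and none as higher, with median log2 fold changes of -0.60 and -0.76. For microglia or macrophage markers, 4 and 5 of 7 were called as higher, and for astrocyte markers 4 and 4 of 6. Across the 14 SCI mice the mean log2 CPM of the 77 subunits had a correlation with the summed neuron markers of r = 0.526 and rho = 0.0242, and r was -0.300 without SCI + Vehicle replicate 7. With mitochondrial ribosomal proteins it was r = 0.915 and rho = 0.908, and 0.837 for r without that mouse. These are descriptions over mice whose values share a library, and no p was computed. What the smaller neuron marker level contributes to the lower subunit level was not tested.

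SCI + Atorvastatin vs. SCI + Vehicle asks what atorvastatin changed in the injured cord. No OXPHOS gene was called there at an unadjusted p below 0.001 and the same fold limit, against 0.106% of all genes (17 of 16091), and DESeq2 and limma also called none. At an unadjusted p below 0.05, 2 of the 90 genes passed in edgeR, both lower with atorvastatin, against 3.01% of all genes in that direction. They were Cox8a, with a log2 fold change of -0.21 ± 0.09 (unadjusted p = 0.0273, adjusted p = 0.690), and Ndufaf7, a methyltransferase of complex I assembly, with -0.28 ± 0.13 (unadjusted p = 0.0429, adjusted p = 0.706). The next smallest p-values were those of Ndufa6 (log2 fold change -0.21 ± 0.10, unadjusted p = 0.0520), Ndufs6 (-0.29 ± 0.15, unadjusted p = 0.0608) and Atp5g2 (-0.33 ± 0.17, unadjusted p = 0.0646). Cox8a was at 656 to 909 TPM with atorvastatin and 731 to 1100.1 with vehicle, so the groups overlapped.

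Of the 77 subunits, 64 had a negative log2 fold change with atorvastatin, against 50.3% of all genes tested, and the median was -0.08 against -0.0014 over all genes. The medians by class were -0.05 (complex I core), -0.07 (accessory), -0.09 (assembly), -0.07 (II), -0.10 (III), -0.13 (IV) and -0.08 (V). In the same comparison all 12 neuron markers had a negative log2 fold change (median -0.15), and the 5 fibroblast markers were all higher at an unadjusted p below 0.05 in edgeR (median 0.84). The part of tissue composition in the subunit values was not tested. The share of negative values rested on SCI + Vehicle replicate 7. Without it, 46 of 77 were negative and the median was -0.02. Leaving out both muscle-rich libraries instead gave 70 of 77 and -0.11, a setting chosen after the data were seen. The subunits were measured in the same libraries, so the number with one sign is not a number of independent results. The summed TPM of the subunit genes had means of 27979 ± 1600.5 TPM (SD, n = 7) with atorvastatin and 29865 ± 3233 (n = 7) with vehicle.

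**Figure D4:**
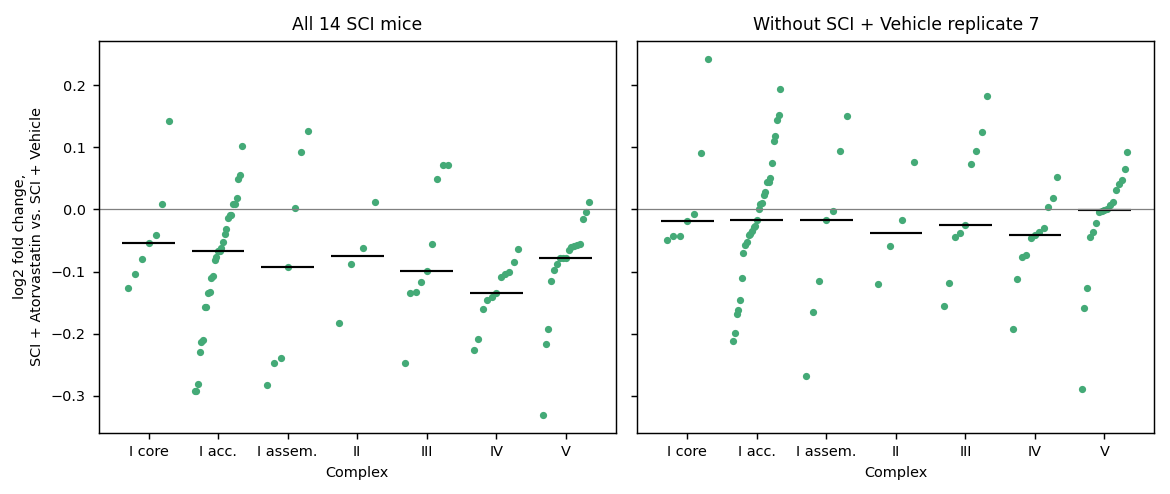
Log2 fold change of each of the 84 OXPHOS genes with counts in a control mouse in SCI + Atorvastatin vs. SCI + Vehicle by class, with the class median as a line, for all 14 SCI mice (left) and without SCI + Vehicle replicate 7 (right). The number of subunits with a negative value went from 64 to 46 of 77.

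Ratios between forms of a subunit were compared between the treatments for 8 pairs by a two-sided exact permutation test of the log2 count ratio (0.5 counts added to each). The smallest adjusted p was 0.769. Atp5g2 to Atp5g3 differed by -0.24 (atorvastatin minus vehicle, exact permutation p = 0.207), with means of -2.03 ± 0.31 and -1.79 ± 0.37 (SD, n = 7 each). Atp5g1 to Atp5g3 differed by -0.12 (exact permutation p = 0.362). Cox4i2 to Cox4i1 differed by -0.19, and Cox6a2 to Cox6a1 by -0.36, with SDs of 0.74 and 1.39 within the SCI + Atorvastatin group, and both signs turned when single mice were left out. Cox7a1 to Cox7a2, Cox8b to Cox8a, Ndufa4l2 to Ndufa4 and Sdha to Sdhb differed by 0.12, 0.70, -0.16 and 0.04. No difference passed the test.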

How the data were processed

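RNA from the spinal cord of 16 mice was sequenced after library preparation with the SMARTer Stranded Total RNA-seq Pico v2 kit. The submitters' processing notes name FastQC 0.12.1, Trimmomatic 0.38, STAR 2.5.4b, RSEM 1.3.1 and the mm10 genome. The authors deposited a table of whole-number counts per gene and a table of TPM for the same genes and mice. The tool behind the whole-number counts, and whether it used strand, are not given in the sources used here. Counts and TPM disagree for some genes, among them Ndufs5, Cox16 and, in Uninjured Control replicate 1, Uqcr10.

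Each pair of groups was fitted separately over the 16091 genes with a mean above 1 TPM in at least 1 condition, by the quasi-likelihood test of edgeR 4.0.16 with TMM scaling (R 4.3.3) and Benjamini-Hochberg adjustment over all genes tested. Genes were called against Uninjured Control at an adjusted p below 0.05, and between treatments at an unadjusted p below 0.001, both with an absolute log2 fold change above 0.322. Libraries held 14823292 to 25579826 counts. DESeq2 1.42.0, limma 3.58.1 on TPM, other filters and leaving out each mouse were alternatives. The fits were also run on simulated counts, with the same spread set for every gene and mouse. That setting lacks the zeros in both controls described above, so it cannot show how the fits behave with them. No pair of libraries was identical. The p-values measure the spread between these mice, which against Uninjured Control came from 7 SCI mice and only 2 controls.

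The members, the other gene lists and the tests were chosen with earlier results of these data known. Genes named with values were, by rule, those with the smallest p in each class or between treatments, those with the highest and lowest level in each class, the isoform families, those called as higher, and those failing the filter or lacking counts. Any other gene named was picked with its values in view. Values of 1 gene are not reported here, although it counts in its class. Replicate numbers in the labels did not pair mice: correlations of the deviations of same-numbered mice ran from -0.192 to 0.111.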

Additional observations from a re-analysis of the deposited data

Results flagged for a closer look

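Of 106 sets of values of 1 group of 7 SCI mice that were tested, 18 had a highest mouse far from the others by Dixon's 95% limit. Chance alone gives about 1 in 20 for independent sets. These sets share libraries, and the sums contain genes also tested singly, so the 18 are not independent. In 14 of the 18 that mouse was SCI + Vehicle replicate 7. Its summed CPM was 189 for the complex I assembly factors, 784 for complex II, 957 for complex III, 1710.1 for complex IV and 3213 for complex V. Among single genes it stood apart at 215 CPM for Atp5f1, 126 for Cox6a1, 71.2 for Cox6b1, 406 for Cox6c, 76.3 for Ndufa4, 48.7 for Ndufs3, 79.0 for Sdhc, 56.4 for Uqcr11 and 174 for Uqcrq. This mouse also had the highest summed neuron markers of the SCI mice (12449 TPM) and the lowest Schwann cell markers (0.52 TPM). The part of tissue composition in these values was not tested.

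Cox6a2 stood apart at 15.8 CPM in SCI + Atorvastatin replicate 2 and at 9.43 CPM in SCI + Vehicle replicate 3, and Cox8b at 7.47 CPM in SCI + Atorvastatin replicate 2. These are the libraries with 4149 and 1025 TPM of skeletal muscle markers. Ndufs6 stood apart at 25.2 CPM in SCI + Atorvastatin replicate 5.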

How the results depend on the processing

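The number of OXPHOS genes called in SCI + Vehicle vs. Uninjured Control, 52, was 33 with limma on log2(TPM + 1) and also 33 with 0.1 in place of 1, and leaving out single mice gave 40 to 63. In SCI + Atorvastatin vs. Uninjured Control it was 62, 41 with limma on log2(TPM + 1), and 51 to 75 without single mice, where a lone control was assumed to vary like the SCI mice. With DESeq2, other scaling, other filters or all groups in 1 fit, both counts stayed within 1.5 times. The 52 and 62 pool both directions, with 47 and 57 genes called as lower and 5 and 5 as higher. Those called as higher had no counts in either control, so a difference was built into their selection. Of all 16091 genes, 4726 and 6260 were called in either direction in the main fit. With limma on log2(TPM + 1) it was 4452 and 6316, and with DESeq2 6000 and 7207. With the replicate number as a block, 0 OXPHOS genes were called in both comparisons with the controls and 0 between the treatments. Over all 16091 genes, 16 (SCI + Vehicle) and 0 (SCI + Atorvastatin) were then called against the controls, and 8 between the treatments. The controls share only 2 replicate numbers with the SCI groups. The numbers did not pair the mice. Between treatments no setting called an OXPHOS gene except an unadjusted p below 0.05 without a fold limit, which gave 2.

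Among the isoform ratios, Ndufa4l2 to Ndufa4 turned to 0.12 when 0.1 counts were added in place of 0.5. Leaving out single mice turned the sign of 4 ratios, none of which passed a test: Cox4i2 to Cox4i1 ran from -0.41 to 0.041, Cox6a2 to Cox6a1 from -0.76 to 0.0042, Ndufa4l2 to Ndufa4 from -0.98 to 0.34 and Sdha to Sdhb from -0.011 to 0.085. Over all alternatives, called genes named in the text lost their call 153 times, and class medians moved by more than the spread between mice 47 times. Of the 84 genes with counts in a control, none of the 47 (vehicle) and 57 (atorvastatin) called turned in sign under any alternative, but 25 of 37 and 18 of 27 not called did. The complex I assembly median also turned in sign, with a range of -0.27 to 0.30 with vehicle and -0.44 to 0.34 with atorvastatin. The causes were not tested.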
